A study of Mus musculus with 12 samples.

Results

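10 genes of epithelial cell adhesion and the epithelial cytoskeleton were followed across the arrays of this mouse lung tumour study: Cdh1, Epcam, the claudin genes Cldn3, Cldn7 and Cldn18, Ocln, and the keratin genes Krt7, Krt8, Krt18 and Krt19. They were found by gene symbol in the platform annotation, and all 10 were measured, each by 1 probe set, among 19937 genes in all. The tissue was Lewis lung carcinoma taken from the lungs of female C57BL/6 mice, and RNA was measured on 12 Affymetrix arrays. Lewis lung carcinoma is a transplantable tumour line of C57BL/6 origin, so such tissue can hold tumour cells and host lung. There were 4 groups of 3 arrays: wild type hosts exposed to air, wild type hosts exposed to smoke, RelA/p65-deficient hosts exposed to air and RelA/p65-deficient hosts exposed to smoke. RelA/p65 is an activating partner within the NF-kB transcription factor. The series title speaks of myeloid cells, but the labels name no promoter or Cre that would restrict the deficiency, and they give no mouse age and no length of exposure. Whether the replicates of a group are different animals is also not given; each p-value therefore speaks for the spread of these arrays alone, which may be technical.

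E-cadherin, the product of Cdh1, joins neighbouring epithelial cells at adherens junctions and is anchored inside the cell through catenins. Claudins and occludin form the tight junction strands that seal the space between cells, and claudin-18 is a main claudin of the lung alveolar barrier. EpCAM is an epithelial surface adhesion protein that binds claudin-7. Keratins are the intermediate filaments of epithelium: a type II chain such as keratin 7 or 8 pairs with a type I chain such as keratin 18 or 19. Keratins 8 and 18 are the pair typical of simple epithelium, and carcinoma cells commonly keep them.

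Values are log2 expression on the deposited scale, where 1 unit is a 2-fold difference, and differences carry the standard error of a linear model with moderated variance (limma). A gene was called where its p-value, adjusted by Benjamini-Hochberg over all 19937 genes, was under 0.05. Levels of different genes are not set against each other, because each probe set has its own response.

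The median log2 value of an array was 6.78 to 6.88, and the correlation across genes was 0.990 to 0.998 for any pair of arrays in a group. Rela itself was not lower in the arrays labelled deficient, at 9.42 ± 0.04 (SD, n = 3) in air and 9.31 ± 0.05 under smoke, against 9.22 ± 0.06 and 9.08 ± 0.10 in wild type arrays. It was 0.20 ± 0.07 higher in air (limma, adjusted p = 0.0285) and 0.23 ± 0.07 higher under smoke (adjusted p = 0.00873). Both calls were lost with each array centred on its median (adjusted p = 0.142 and 0.213), and the air call also without wild type air replicate 2 (adjusted p = 0.106) or deficient air replicate 1 (0.0797) or 2 (0.09). The labels do not say which part of the gene was deleted, so these groups are called arrays labelled deficient. Markers of lung epithelium moved with most of the 10 genes, and their values are given beside the results. In such bulk tissue, fewer cells of a type and less RNA per cell cannot be told apart.

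Promoter sequences are shown for 5 of the genes because these members parted company in the arrays: Epcam, Cldn3 and Krt7 were lower in wild type smoke, and Krt8 and Krt18, which lie next to each other on the same chromosome as Krt7, were not. Each window runs from 250 bases before to 50 bases after an annotated start (RefSeq, GRCm38.p6) and is written 5′ to 3′ along the gene. Capitals mark CACCTG or its complement, the E-box that repressors of Cdh1 such as Snail and ZEB proteins are known to bind. The Epcam window is chr17:87635729-87636028 on the plus strand, Cldn3 is chr5:134985964-134986263 on the plus strand, Krt7 is chr15:101412153-101412452 on the plus strand, Krt8 is chr15:102004293-102004592 on the minus strand and Krt18 is chr15:102027966-102028265 on the plus strand.
Epcam: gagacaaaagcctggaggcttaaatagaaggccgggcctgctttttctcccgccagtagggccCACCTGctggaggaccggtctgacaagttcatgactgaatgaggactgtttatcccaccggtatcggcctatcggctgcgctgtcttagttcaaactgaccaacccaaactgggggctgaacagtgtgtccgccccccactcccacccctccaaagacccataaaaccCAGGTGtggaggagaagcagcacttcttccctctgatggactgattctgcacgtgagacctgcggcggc
Cldn3: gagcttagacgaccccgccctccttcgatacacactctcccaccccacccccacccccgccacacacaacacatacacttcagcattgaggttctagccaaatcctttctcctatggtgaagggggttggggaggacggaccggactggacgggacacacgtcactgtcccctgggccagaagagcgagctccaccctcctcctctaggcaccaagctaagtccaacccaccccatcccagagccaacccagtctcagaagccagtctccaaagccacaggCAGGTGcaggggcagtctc
Krt7: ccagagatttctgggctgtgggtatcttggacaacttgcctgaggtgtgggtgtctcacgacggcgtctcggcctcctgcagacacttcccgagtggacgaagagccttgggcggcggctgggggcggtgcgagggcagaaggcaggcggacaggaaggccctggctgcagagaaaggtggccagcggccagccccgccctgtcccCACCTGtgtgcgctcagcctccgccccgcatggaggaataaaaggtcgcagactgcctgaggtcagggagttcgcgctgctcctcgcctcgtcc
Krt8: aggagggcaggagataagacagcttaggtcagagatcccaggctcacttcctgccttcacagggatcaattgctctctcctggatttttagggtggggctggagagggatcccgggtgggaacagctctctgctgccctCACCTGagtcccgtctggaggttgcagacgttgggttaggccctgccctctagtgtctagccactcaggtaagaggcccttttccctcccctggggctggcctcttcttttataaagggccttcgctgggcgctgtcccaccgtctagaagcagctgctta
Krt18: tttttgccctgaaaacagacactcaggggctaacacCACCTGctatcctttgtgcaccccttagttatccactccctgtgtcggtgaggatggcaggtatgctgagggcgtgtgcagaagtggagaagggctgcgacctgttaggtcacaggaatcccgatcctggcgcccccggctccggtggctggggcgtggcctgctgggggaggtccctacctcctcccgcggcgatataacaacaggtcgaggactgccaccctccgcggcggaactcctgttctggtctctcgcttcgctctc

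The promoter table held windows for 8 of the 10 genes, 11 windows in all; Cdh1 and Krt19 were the other members. The E-box CACCTG, searched on both strands, was in 8 of the 11 windows, against 20.2% of all 32851 windows of 300 bases. It began at position -187 and -19 in Epcam, 32 in Cldn3, -44 in Krt7, -111 in Krt8 and -214 in Krt18, counted from the start site. Both windows of Cldn18 lacked it. The letters were present in windows of some genes that were lower in wild type smoke and in those of Krt8 and Krt18. Their part in the differences was not tested. The core GCGTG of the aryl hydrocarbon receptor's site was in 5 of the 11 windows (32.4% of all), which belonged to Cldn7, Ocln and Krt18. The NF-kB consensus was in 1, that of Krt18 (8.46% of all), and the AP-1 motif TGANTCA was in 0 of the 11 (7.81% of all). Both strands were searched for each, and no E-box overlapped another of these motifs. The windows of Ocln overlap and share bases, and an E-box in the shared bases was counted in both. These matches describe letters, not bound sites.

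**Figure D1:**
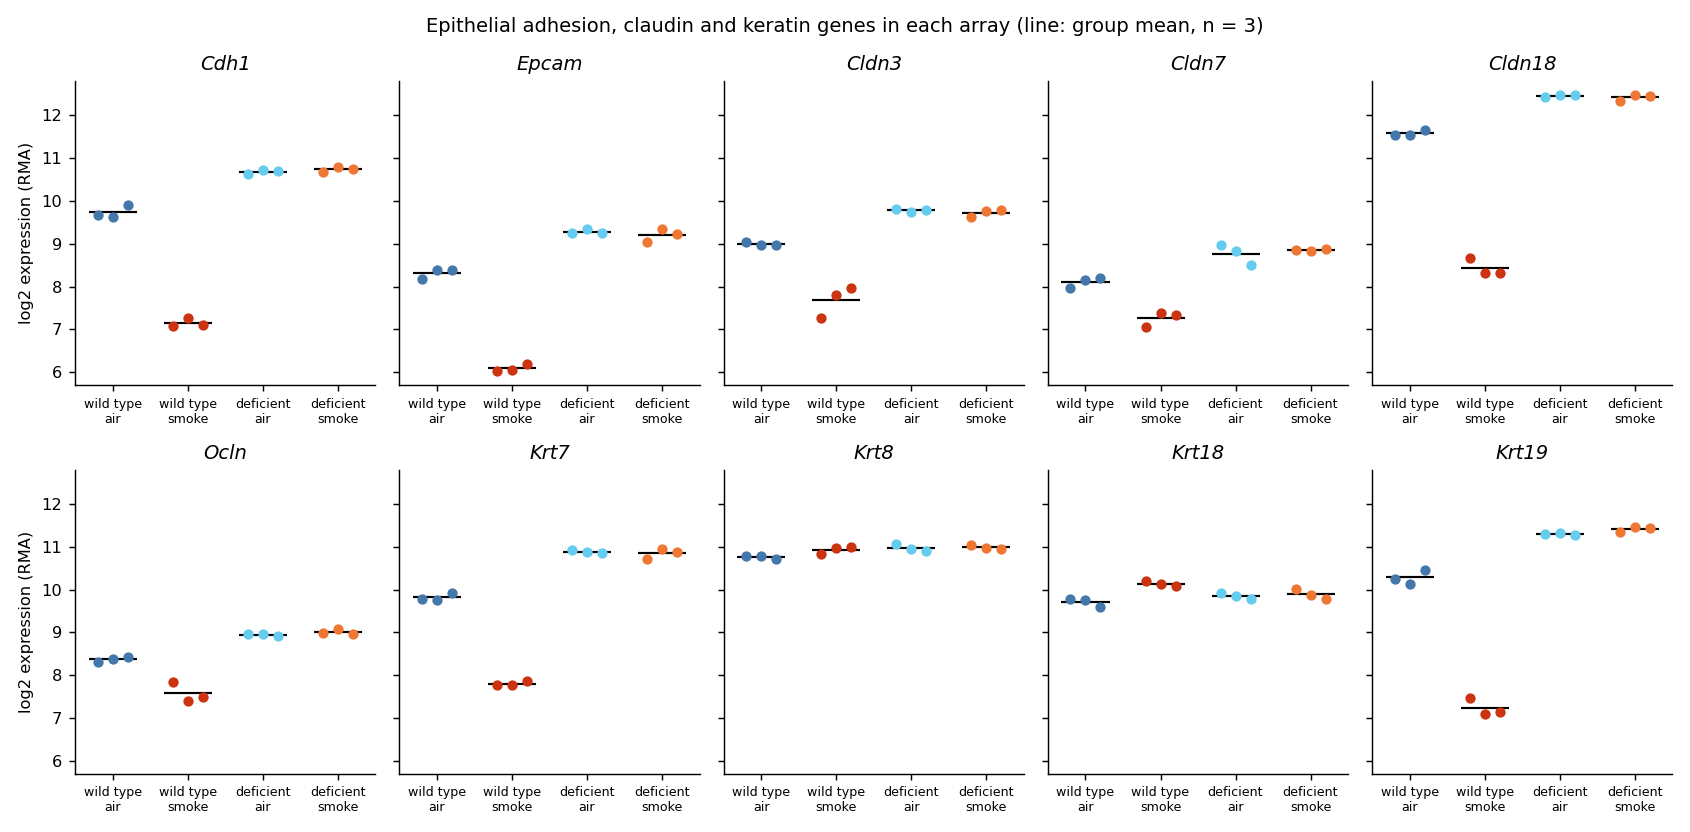
Log2 expression (vertical axis) of the 10 genes in each of the 12 arrays, by group; points are arrays and lines are group means of 3. 8 panels show every wild type smoke array below all arrays of the other groups, with the smallest falls from wild type air for Cldn7 and Ocln. Krt8 lies between 10.72 and 11.06 in every array, and Krt18 is highest in wild type smoke at 10.08 to 10.20.

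Smoke exposure was first compared with air in wild type hosts, to ask how tumour tissue differed with smoke. Of the 10 genes, 8 fell, Krt18 rose and Krt8 did not pass the test. The falls ran from 0.79 for Ocln to 3.15 for Cldn18 on the log2 scale, that is from 1.73-fold to 8.9-fold. Over all 19937 genes 14.0% were called lower and 15.0% higher in this comparison, 29.0% in all (2991 genes higher and 2787 lower, against 7600 and 2252 with median centring, where Krt8 also passed). The median of the 10 differences was -1.67, against 0.08 for all genes. The 2 groups did not overlap for any of the 10 genes, and the same was so for 36.9% of all genes.

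Cdh1, which encodes E-cadherin, measured 9.66, 9.63 and 9.90 in the 3 wild type air arrays and 7.07, 7.27 and 7.09 in the wild type smoke arrays. Its fall of 2.59 ± 0.08 was 6.01-fold (limma, adjusted p = 6.02e-11), with every smoke array more than 2 units below every air array. Epcam lay at 8.17 to 8.38 in air and at 6.02 to 6.18 under smoke, a fall of 2.23 ± 0.09 or 4.68-fold (adjusted p = 3.78e-10). Its level under smoke was below the median of every array, where RMA values compress differences.

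The 3 claudin genes fell by unequal amounts. Cldn18 measured 11.53, 11.55 and 11.67 in wild type air and 8.66, 8.31 and 8.31 in wild type smoke, and fell by 3.15 ± 0.09 (95% confidence interval of the difference -3.35 to -2.96; adjusted p = 2.57e-11). Cldn3, a claudin of many simple epithelia, measured 9.04, 8.97 and 8.98 in air and 7.27, 7.81 and 7.97 under smoke, and fell by 1.32 ± 0.13 (interval -1.61 to -1.03; adjusted p = 6.23e-06). For Cldn7, the partner of EpCAM, the range was 7.96 to 8.19 in air and 7.06 to 7.37 under smoke, and it fell by 0.84 ± 0.12 (interval -1.09 to -0.59; adjusted p = 1.04e-04). Ocln, the occludin gene, lay at 8.31 to 8.42 in air and at 7.40 to 7.85 under smoke, and fell by 0.79 ± 0.10 (adjusted p = 3.59e-05). The interval of Cldn18 lay wholly below those of Cldn3 and Cldn7. The difference between members was not tested as such, and the size of a fall also depends on the probe set.

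Wild type smoke replicate 1 stood apart from its group in opposite directions among these genes. It was the lowest of the 3 for Cldn3 (7.27 against 7.81 and 7.97) and for Cldn7 (7.06 against 7.37 and 7.34). It was the highest for Cldn18 (8.66 against 8.31 and 8.31), Ocln (7.85 against 7.40 and 7.48) and Krt19 (7.47 against 7.09 and 7.13). Without that array the 8 falls were still called.

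The keratin genes divided. Krt19, a type I keratin of simple and ductal epithelium, measured 10.25, 10.14 and 10.47 in wild type air and 7.47, 7.09 and 7.13 in wild type smoke, and fell by 3.06 ± 0.10 or 8.33-fold (adjusted p = 1.00e-10). Krt7, a type II keratin of lung and other simple epithelia, measured 9.79, 9.75 and 9.92 in air and 7.76, 7.78 and 7.87 under smoke, and fell by 2.02 ± 0.07 or 4.04-fold (adjusted p = 2.55e-10). In contrast, Krt18 measured 9.78, 9.76 and 9.59 in air and 10.20, 10.14 and 10.08 under smoke, and rose by 0.43 ± 0.08 or 1.35-fold (adjusted p = 0.00126). Krt8, the type II partner of keratin 18, measured 10.78, 10.78 and 10.72 in air and 10.83, 10.97 and 10.99 under smoke. All 3 smoke arrays lay above all 3 air arrays, but the difference of 0.17 ± 0.07 did not pass (interval 0.02 to 0.32, adjusted p = 0.0772). It passed with median centring, at 0.26 (adjusted p = 0.00484), and without wild type smoke replicate 1, at 0.22 (adjusted p = 0.0198).

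**Figure D2:**
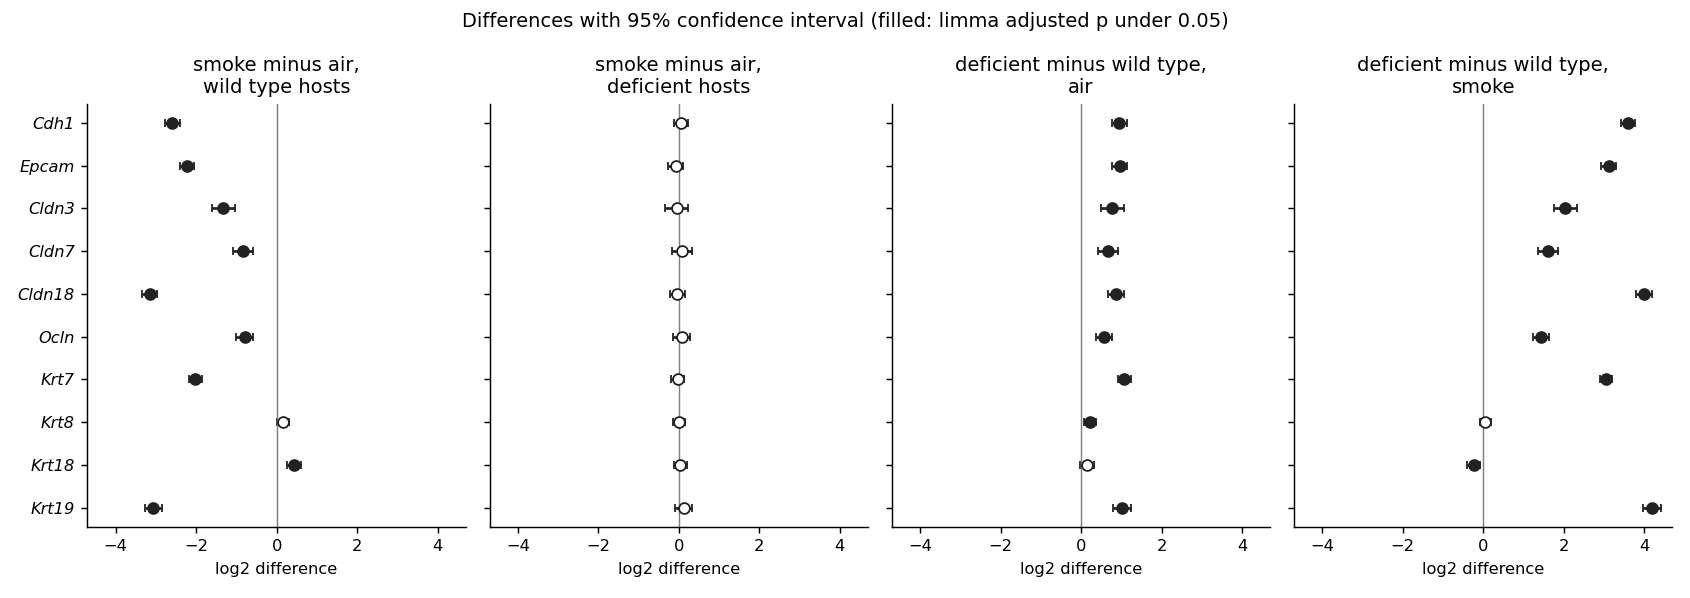
Log2 differences (horizontal axis) of the 10 genes in 4 comparisons, with 95% confidence intervals from limma; filled points have an adjusted p under 0.05. In wild type hosts 8 genes lie left of 0 and Krt18 right of it at 0.43, while in hosts labelled deficient every interval holds 0.

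In hosts labelled deficient, smoke was compared with air in the same way. None of the 10 genes passed the test in limma, against 2.41% of all genes (0.692% higher and 1.72% lower), and none of them had an unadjusted p under 0.05. The differences lay between -0.08 for Epcam and 0.12 for Krt19. Cdh1 measured 10.64, 10.72 and 10.69 in air and 10.68, 10.79 and 10.74 under smoke, a difference of 0.05 with an interval of -0.13 to 0.23. For Cldn18 the difference was -0.04 (interval -0.23 to 0.16) and for Krt7 -0.03 (interval -0.19 to 0.13). Krt8 and Krt18 differed by 0.01 (interval -0.14 to 0.15) and 0.04 (interval -0.13 to 0.21). The widest bounds were those of Cldn3, from -0.34 to 0.23, and of Cldn7 and Krt19, both up to 0.34. Groups did not overlap for Krt19 and Ocln, 2 of 10 genes, against 22.7% of all genes.

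The smoke difference was then compared between the genotypes by the interaction term. It passed for 9 of 10 genes, while 14.6% of all genes passed (8.89% positive and 5.70% negative; 1773 and 1136 genes, or 1520 and 2149 with median centring). The smoke difference of Cldn18 was 3.12 ± 0.13 higher in the arrays labelled deficient than in wild type arrays, that of Krt19 3.18 ± 0.15 (adjusted p = 5.34e-09) and that of Cdh1 2.64 ± 0.12 (adjusted p = 4.03e-09). Ocln and Cldn7 had the smallest positive terms, 0.86 ± 0.14 (adjusted p = 6.03e-04) and 0.93 ± 0.16 (adjusted p = 0.00134). For Krt18 the term was negative, -0.38 ± 0.11 (adjusted p = 0.0349), and it was lost without any 1 of 6 arrays: wild type air replicate 3, wild type smoke replicate 2, deficient air replicate 1 or 2, or deficient smoke replicate 2 or 3 (adjusted p from 0.0647 to 0.0939). Krt8 did not pass, at -0.16 ± 0.10.

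Genotype was compared in air next. In these arrays 9 of 10 genes were higher in those labelled deficient and none was lower, against 20.5% of all genes higher and 38.5% called either way (4083 higher and 3591 lower, or 3377 and 5146 with median centring). The median of the 10 was 0.83, and that of all genes was -0.03. Krt7 differed most: it measured 10.93, 10.88 and 10.86 in deficient air, which was 1.07 ± 0.07 or 2.1-fold higher (adjusted p = 2.43e-07). Krt19 was 1.01 ± 0.10 higher, Epcam 0.97 ± 0.09, Cdh1 0.95 ± 0.08 and Cldn18 0.88 ± 0.09. The other tight junction members were 0.57 higher for Ocln, 0.67 for Cldn7 and 0.78 for Cldn3. These 8 differences, 0.57 to 1.07, spanned a narrower range than the falls with smoke in wild type hosts.

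The keratin 8 and 18 genes again moved little with genotype in air. Krt8 was 0.22 ± 0.07 higher (adjusted p = 0.0211), a call that was lost with quantile normalization (0.17, adjusted p = 0.0943), with median centring (0.14, adjusted p = 0.0813) and when either wild type air replicate 3 (adjusted p = 0.0695) or deficient air replicate 1 (adjusted p = 0.0933) was left out. Krt18 was at 9.93, 9.84 and 9.79 in deficient air, and its difference of 0.14 ± 0.08 did not pass (interval -0.03 to 0.31, adjusted p = 0.189). The groups did not overlap for any of the 10 genes, as for 51.9% of all genes.

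Under smoke, the arrays labelled deficient were compared with wild type arrays. This comparison shares the wild type smoke arrays with the first, so its values are not separate support. Here 8 genes were higher in the arrays labelled deficient and Krt18 was lower, while 22.7% of all genes were higher, 37.0% lower and 59.6% called in all (4518 and 7368 genes, or 3555 and 11974 with median centring). Krt19 measured 11.34, 11.47 and 11.44 in deficient smoke, 4.19 ± 0.10 or 18.2-fold above wild type smoke (adjusted p = 1.62e-12). Cldn18 measured 12.34, 12.48 and 12.46 and was 4.0 ± 0.09 or 16-fold higher. The differences of Cdh1, Epcam and Krt7 were 3.59 ± 0.08, 3.12 ± 0.09 and 3.05 ± 0.07. Those of Cldn3, Cldn7 and Ocln were 2.04 ± 0.13, 1.60 ± 0.12 and 1.44 ± 0.10. Krt18, at 10.02, 9.87 and 9.79, differed by -0.24 ± 0.08 (adjusted p = 0.0191). That call was lost without deficient smoke replicate 2 (adjusted p = 0.0563) or 3 (adjusted p = 0.0838). Krt8 was at 11.05, 10.97 and 10.94, a difference of 0.05 with an interval of -0.09 to 0.20, and its groups overlapped. The groups of the other 9 members did not, as for 61.3% of all genes.

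The order of the groups was therefore the same for 8 genes: lowest in wild type smoke, then wild type air, then the 2 groups labelled deficient, between which no member passed the test. Cldn7, for example, lay at 7.26 ± 0.17 (SD, n = 3) in wild type smoke, 8.10 ± 0.12 in wild type air, 8.77 ± 0.24 in deficient air and 8.86 ± 0.02 in deficient smoke. Krt18 had its highest mean in wild type smoke, 10.14 ± 0.06, and its lowest in wild type air, 9.71 ± 0.11. Its 2 groups labelled deficient, at 9.85 ± 0.07 and 9.90 ± 0.12, overlapped each other. Krt8 was lowest in wild type air, 10.76 ± 0.04, while the other 3 groups had means of 10.93 ± 0.09, 10.98 ± 0.08 and 10.98 ± 0.06 and overlapped.

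Across the 12 arrays the 8 genes correlated with each other with r from 0.94 to 1.0 over 28 pairs, Krt8 correlated with them with r from 0.07 to 0.37, and Krt18 with r from -0.7 to -0.52. The arrays form 4 groups and all genes were read on the same 12 arrays, so these coefficients describe group differences for the most part. Splitting off Krt8 and Krt18 was done after their values were seen.

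Genes with the most similar pattern over the 12 arrays were named for each member, by Pearson's r among 14527 genes with a mean log2 level of at least 6. Cdh1 was most like Cpm, Gsta3 and the surfactant protein gene Sftpb (each r = 0.999). Epcam was most like Emp2, a type I alveolar cell gene, Slc39a8 and Slco2a1 (each 0.999), and Cldn18 most like Hpgd, Pde5a (both 1.000) and Mme (0.999). Krt19 was most like Tspan8, Gucy1b1 and the lysozyme gene Lyz1 (each 0.999), and Krt7 most like Slco3a1 (1.000), Chil1 and Ptprd (both 0.999). For Cldn3 they were Epha4, Spata18 (both 0.996) and Lrp4 (0.995), for Ocln Tmem243, Sema6a (both 0.997) and Arap2 (0.995), and for Cldn7 Slc16a12 (0.992), the epithelial protease gene St14 (0.991) and Cfap54 (0.990). Krt18 had other company: Clec4d (0.949), C1qb (0.938) and Msr1 (0.934), which encode a myeloid lectin, a complement chain and a macrophage scavenger receptor. Krt8 was least well matched, with P2ry2 (0.915), Dennd4b (0.909) and Efhd2 (0.897).

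The junction partners of the members were taken from lists drawn up by gene function, with earlier results of these data known. Of 15 tight junction partners 11 fell with smoke in wild type hosts and none rose, with a median of -0.43. With quantile normalization or median centring 1 rose and 11 or 10 fell. Over all genes 14.0% were called lower and 15.0% higher in this comparison. F11r, the junctional adhesion molecule JAM-A, fell by 1.42 ± 0.12 (adjusted p = 1.02e-06), and the polarity genes Patj and Pard6b fell by 1.38 ± 0.09 and 1.21 ± 0.07. In deficient air 12 of the 15 were higher and 1 lower than in wild type air, and no partner passed between smoke and air in the arrays labelled deficient.

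Of 10 adherens junction partners 4 fell and none rose with smoke in wild type hosts (median -0.12), against 14.0% and 15.0% of all genes. With median centring 4 fell and 1 rose. Jup, which encodes plakoglobin, a catenin of both adherens junctions and desmosomes, fell by 1.83 ± 0.10 (adjusted p = 9.43e-09) and was 2.73 ± 0.10 higher in deficient smoke than in wild type smoke. Ctnnd1, which encodes the p120 catenin that binds E-cadherin, fell by 0.35 ± 0.07 (adjusted p = 0.003). Among 9 desmosome genes 4 fell and 1 rose, beside the same shares of all genes (4 and 3 with median centring, 5 and 2 with quantile normalization). Perp fell by 1.43 ± 0.09, the desmoplakin gene Dsp by 1.11 ± 0.11 and the periplakin gene Ppl by 0.57 ± 0.08.

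In a list of 16 further claudin genes 2 fell, 4 rose and 10 did not pass with smoke in wild type hosts, with a median of 0.12. Over all genes 14.0% fell and 15.0% rose, so the falls in this list were near the share of all genes. The list is not every measured claudin: Cldn5 was counted with the endothelial markers. Rises were 4 to 7 and falls 2 to 3 over the scalings tried. Cldn10 fell by 1.35 ± 0.10 (adjusted p = 1.87e-07), from 7.49 to 6.14, and Cldn1 by 1.01 ± 0.08. Both were higher in deficient smoke than in wild type smoke, by 2.05 ± 0.10 and 1.31 ± 0.08. Cldn1 was also the 1 claudin gene of the 16 that fell with smoke in the arrays labelled deficient, by 0.43 ± 0.08 (adjusted p = 0.0142). Among 20 epithelial regulators and surface proteins 14 fell and 1 rose with smoke in wild type hosts, beside the same shares of all genes. Their median was -0.85 (2 rose with median centring). The mucin gene Muc1 fell by 2.79 ± 0.13, the protease inhibitor gene Spint2 by 2.69 ± 0.13 and Cd24a by 2.54 ± 0.12.

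Known repressors of Cdh1 went both ways in the comparison in which Cdh1 fell. Of 6 genes, Snai1 rose by 0.39 ± 0.07 (adjusted p = 0.00114) and Twist2 by 0.52 ± 0.11 (adjusted p = 0.00279). Snai2 fell by 0.74 ± 0.10 (adjusted p = 5.99e-05), and Zeb2, named after its value was seen, by 0.25 ± 0.07 (adjusted p = 0.0156). With median centring 2 of the 6 rose and 1 fell. Over all genes 15.0% were called higher and 14.0% lower in this comparison. In air, where Cdh1 was higher in the arrays labelled deficient, 4 of the 6 were lower and Zeb2 was higher, by 0.45 ± 0.07 (adjusted p = 1.37e-04). The largest of these differences was that of Twist1, -1.80 ± 0.13 (adjusted p = 2.89e-07). Under smoke 4 of the 6 were lower in the arrays labelled deficient, against 37.0% of all genes. Of these, Snai2 passed narrowly, at -0.24 ± 0.10 (adjusted p = 0.0457) with overlapping groups, where it was at -0.82 ± 0.10 in air. Zeb2 was higher, by 0.62 ± 0.07, as were 22.7% of all genes. Against 2.41% of all genes, Snai1 alone of the 6 passed between smoke and air in the arrays labelled deficient. It rose by 0.30 ± 0.07 (adjusted p = 0.0453), while Cdh1 differed by 0.05 without passing. Bulk tissue does not show whether the same cells held these RNAs. The part of these genes in the Cdh1 values was not tested.

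A list of 22 further keratin genes was mostly dim, with a mean of 5.73 to 6.09 per wild type array. It leaves out other measured keratins, such as Krt72, Krt75 and Krt84, which are counted with the keratin cluster. Krt1, Krt6a, Krt6b, Krt71, Krt76, Krt79 and others are counted both here and with the cluster. With smoke in wild type hosts 8 rose, 3 fell and 11 did not pass, with a median of 0.21. Over all genes 15.0% rose and 14.0% fell, so the falls in this list were near the share of all genes. Rises were 7 with quantile normalization and 13 with median centring, and falls 3 with both. The 3 that fell were Krt23 (-0.84 ± 0.18), Krt80 (-0.74 ± 0.09) and Krt79 (-0.44 ± 0.11). The same 3 were higher in deficient smoke than in wild type smoke, by 1.37, 1.69 and 1.54. Krt79 was also the 1 gene of the 22 that rose with smoke in the arrays labelled deficient, by 0.54 ± 0.11 (adjusted p = 0.0183).

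Position in the keratin cluster was set beside these values. Krt7, Krt8 and Krt18 lie on chromosome 15 in the RefSeq gene table, with 23 protein-coding genes between Krt7 and Krt8, 21 of them measured. Of these 21 genes 7 rose and 1, Krt79, fell with smoke in wild type hosts, and their differences lay between -0.44 and 0.41. Krt79 and most of those that rose were already counted in the list of further keratins, so this count is not separate support. Over all genes 15.0% were called higher and 14.0% lower. The 7 that rose were dim, with mean log2 levels of 4.25 to 6.44 over the arrays, below the lowest array median of 6.78. Krt80, next to Krt7 on the outer side, fell by 0.74. Krt8 and Krt18, at the other end, are direct neighbours, and Eif4b, a translation factor gene beyond Krt18, differed by 0.16 without passing (adjusted p = 0.131). Falls were thus seen at the Krt80 and Krt7 end and at Krt79.

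**Figure D3:**
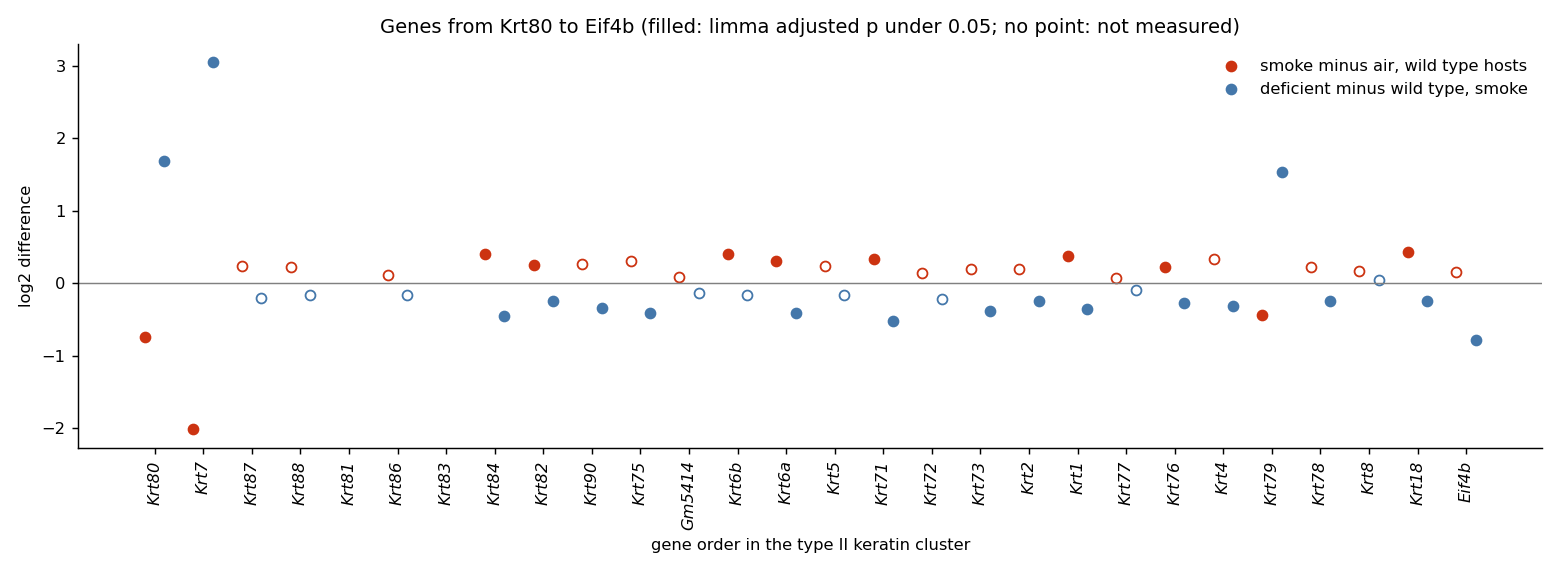
Log2 differences (vertical axis) of protein-coding genes in RefSeq order along the type II keratin cluster (horizontal axis, order and not distance), for smoke minus air in wild type hosts and for deficient minus wild type under smoke; filled points have a limma adjusted p under 0.05. Krt80, Krt7 and Krt79 are lower with smoke and higher in the arrays labelled deficient, while Krt8 and Krt18 stay between -0.24 and 0.43.

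Markers of cell types were measured in the same arrays. With smoke in wild type hosts all 12 type II alveolar cell markers fell, with a median of -1.94, and 9 of 10 type I cell markers fell, with a median of -1.88. All 10 club and airway secretory markers fell, with a median of -3.67, and 7 of 10 ciliated cell markers, with a median of -0.71. Over all genes 14.0% were called lower in this comparison. The mean level of the type II list was 10.85 to 11.06 in wild type air arrays, 8.97 to 9.14 with smoke, and 11.77 to 11.80 and 11.78 to 11.90 in air and smoke arrays labelled deficient. That of the club cell list was 9.91 to 10.18, 6.57 to 6.70, 10.83 to 10.90 and 10.79 to 10.91 in the same order. The 8 genes that fell had differences of -3.15 to -0.79 beside these. The part of cell content in the members' differences was not tested.

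Other tissues' markers moved too, beside 14.0% of all genes lower and 15.0% higher with smoke in wild type hosts. In deficient air 20.5% of all genes were higher than in wild type air. Endothelial markers fell with smoke in wild type hosts in 9 of 10 cases (median -0.84), and all 10 were higher in deficient air than in wild type air. Fibroblast markers went both ways with smoke in wild type hosts, 5 of 10 higher and 3 lower (median 0.30). Leukocyte markers had 5 of 9 higher and 1 lower with smoke in wild type hosts, with a list mean of 7.81 to 8.06 in wild type air and 8.16 to 8.23 in wild type smoke. In deficient air all 9 were higher than in wild type air, with a list mean of 8.95 to 9.02. Krt18 differed by 0.43 and 0.14 in these comparisons, and the part of leukocyte content in its values was not tested.

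Mesothelium lines the lung surface and also expresses keratins 7, 8, 18 and 19. With smoke in wild type hosts 6 of its 10 markers fell and 1 rose, with a median of -0.51 (6 fell and 2 rose with either rescaling). Over all genes 14.0% fell and 15.0% rose. In that comparison Krt7 and Krt19 fell by 2.02 and 3.06, Krt18 rose by 0.43, and Krt8 did not pass, at 0.17. Against 1.72% of all genes, 6 of the 10 markers fell with smoke in the arrays labelled deficient (4 with either rescaling). Among them were the mesothelin gene Msln, by 0.82 ± 0.08 (adjusted p = 1.08e-04), and the uroplakin gene Upk3b, by 0.83 ± 0.14 (adjusted p = 0.00535). The list mean was 8.22 to 8.24 in deficient air and 7.80 to 7.85 in deficient smoke. In the same arrays the 4 keratin members differed by -0.03 to 0.12, none of them called. The part of mesothelial content in the keratin values was not tested. Leukocyte markers moved there too, 5 of 9 lower and 1 higher, against 1.72% and 0.692% of all genes (3 or 4 lower with rescaling).

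**Figure D4:**
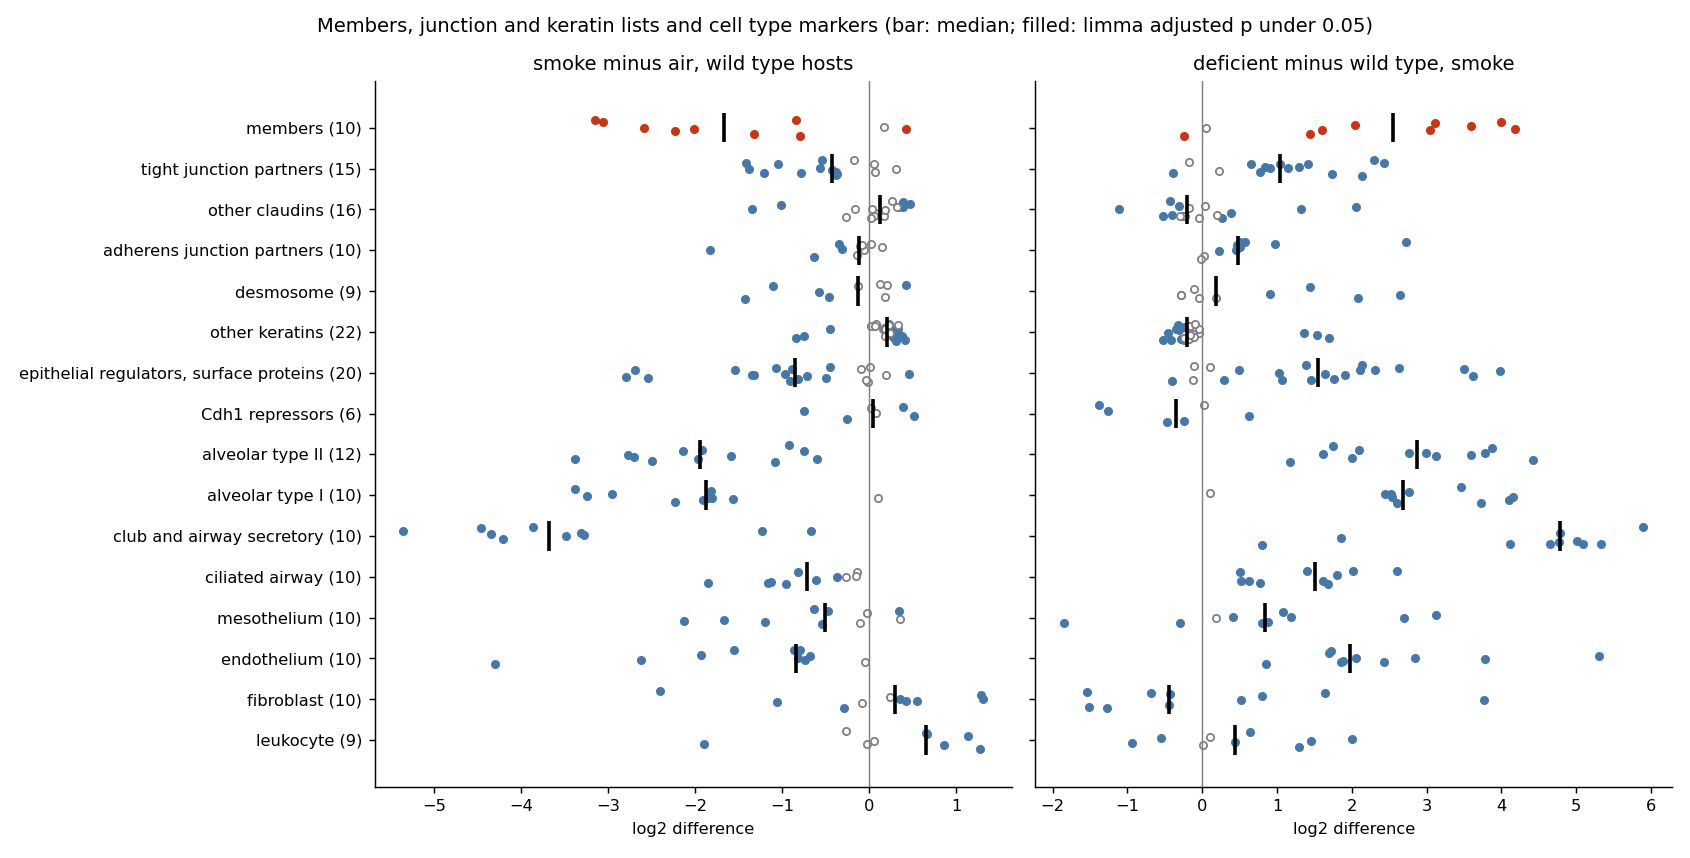
Log2 differences (horizontal axis) for smoke minus air in wild type hosts (left) and deficient minus wild type under smoke (right) of the 10 members, 7 lists of related epithelial genes and 8 lists of cell type markers, with the number measured in parentheses; points are genes, filled where limma's adjusted p was under 0.05, and bars are list medians. With smoke in wild type hosts the members' median is -1.67, or -2.12 without Krt8 and Krt18. Medians are -1.94 and -1.88 for the alveolar lists, -3.67 for club and airway secretory markers and -0.71 for ciliated markers. Epithelial regulators and surface proteins have a median of -0.85, and the lists of other claudins and other keratins centre at 0.12 and 0.21.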

How the data were processed

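The log2 values are those the authors deposited, made in Affymetrix Expression Console with RMA (background correction, quantile normalization, probe summary), per the submitters' processing notes; RMA compresses differences of dim genes. No further normalization was applied. The 21640 of 34760 probe sets that the platform annotation ties to 1 symbol were kept, and each gene took its probe set with the highest mean, which gave 19937 genes. Probe sets with several symbols (1321) or none listed (11799) were left out. All 12 arrays entered 1 limma model (version 3.58.1, R 4.3.3) that gave each group its own mean (residual df 8, prior df 4.83), with 2-sided tests, 5 contrasts and Benjamini-Hochberg adjustment over all genes of a contrast. The fit was tested on simulated data. The number of arrays limits the precision.

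Named genes were the 10 members, up to 3 called genes with the largest differences per functional list and up to 2 per cell type list whose groups did not overlap, Rela, and the 3 most similar genes per member. Members and lists were chosen with earlier results of these data known. Each result was recomputed with dim genes left out (those without a log2 value of 6 or more in 3 arrays), with a gene's probe sets averaged, with quantile normalization, with median centring, with the replicate number as a block, on only the 6 arrays compared, and without each array in turn. Python 3.11.15 and matplotlib 3.10.9 were used.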

Additional observations from a re-analysis of the deposited data

Results flagged for a closer look

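By the interaction test in limma (adjusted p under 0.05), 14.6% of all genes passed, 8.89% with a positive term and 5.70% with a negative one. The smoke difference of 9 members differed between host genotypes by this test. On the log2 scale, as the difference in arrays labelled deficient minus that in wild type arrays, it was 2.64 for Cdh1, 2.15 for Epcam, 1.26 for Cldn3, 0.93 for Cldn7, 3.12 for Cldn18, 0.86 for Ocln, 1.98 for Krt7 and 3.18 for Krt19. For Krt18 it was -0.38, a term that was lost without any 1 of 6 arrays. Alveolar type II markers had a median interaction term of 1.95, with 12 of 12 called, and the part of cell content in the members' terms was not tested.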

How the results depend on the processing

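The direction of a called difference changed for no member in any comparison under any alternative tried. Averaging probe sets could not change a member's difference, as each has 1 probe set. Leaving out an array outside a comparison changed the estimate of the spread and not the difference. For the 8 members other than Krt8 and Krt18, all 712 values kept their side of the threshold. Over all 10 members 876 of 890 did; 12 calls were lost and 2 gained, all of them Krt8 or Krt18 values given with the results, and 11 uncalled values changed sign. Leaving out each array in turn gave 9 to 10 members called for smoke in wild type hosts, 0 for smoke in hosts labelled deficient, 8 to 9 for genotype in air and under smoke, and 8 to 9 for the interaction. Counts over all genes moved more. For smoke in wild type hosts 5778 genes became 9852 with median centring (7600 higher and 2252 lower, in place of 2991 and 2787), 3454 with only the 6 arrays, 3695 without wild type air replicate 3 and 8824 without wild type smoke replicate 1. For smoke in hosts labelled deficient 481 became 1018 with only the 6 arrays, 261 to 320 without any 1 of the 6 arrays labelled deficient and up to 717 without a wild type array, and the interaction count of 2909 became 4969 without wild type smoke replicate 1. Median centring moved the median of all genes from 0.08 to 0.17 for smoke in wild type hosts and from -0.14 to -0.28 for genotype under smoke. With the replicate number as a block, 9, 0, 9, 9 and 9 members were called in the 5 comparisons, as without it. The labels do not say whether equal numbers pair the arrays. In their deviations from group means, same-numbered arrays correlated with r from -0.36 to 0.37 and other-numbered arrays with r from -0.59 to 0.49. An r over 0.1 was seen in 7 of 18 same-numbered pairs and in 5 of 36 others. Of 36 choices of the best match, each among the 3 arrays of a group, 17 fell on the own number. So few arrays cannot decide whether the numbers pair them. The same alternatives were run after seeing the data on named list genes and list counts: 78 of 3482 gene values lost their call and 1 gained one, none reversed, and 88 of 1335 list counts moved by over 1.5 times.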
